A study of Homo sapiens with 4 samples.

Results

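The first split of a lineage tracing experiment divided 1 pool of recorder cells between plate 0 and plate 1, and the comparison asks how the clones and their heritable edits differed between those sides. Libraries 00 and 01 came from plate 0 and libraries 10 and 11 from plate 1, by the first digit of their titles. Clones with at least 20 cells on each side were compared. They were 9 of the 11 clones and held 32398 of the 34557 cells, 17572 on plate 0 and 14826 on plate 1. The cells were A549, a human lung adenocarcinoma line, transduced in series with lentiviruses for Cas9 with mCherry, for the Target Site with GFP and for a triple-sgRNA cassette with BFP and puromycin resistance. The SFFV promoter drove Cas9 and the EF1a promoter the Target Site, and the guides carried single-base mismatches. Both sides shared all of these components. By the study's methods the sides grew in separate wells after the first split, and puromycin was added in that time. Effects of the split, of the later growth and of that selection cannot be told apart. The pool was made of several clones, so no side was a clonal line.

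Such a recorder works because Cas9 cuts leave insertions or deletions (indels) in the target site, and each indel then passes to all descendants of the cell. A target site here held 3 cut sites and a random integration barcode (intBC) that told its copies apart. The set of intBCs marked a clone, and the indels within a clone marked its branches. An indel at a given cut site of a given intBC is called a state below. A state made before the split could be carried to both plates, whereas a state made after it would be found on the other plate where the same indel arose again.

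Each library was a single plate, and the plates within a side were separated by the second split, so the difference between these sister libraries served as the spread. By the study's methods the second split came later, so sister libraries shared more growth and are not replicates of the first split. Cells of a clone share ancestors, so each test was run over clones, by exact two-sided permutation of the signs of the clone values (sign flips), with Benjamini-Hochberg adjustment over 11 tests. Plate 0 and plate 1 were each a single plate, so the tests describe how clones differed between these plates. The source text does not give the order of the label digits, and the first was read as the first split. Only target site transcripts were read, so the A549 label could not be checked against marker genes. The libraries held 8031 to 9337 cells and 679952 to 812480 UMIs (unique molecular identifiers, one per captured transcript). Mean UMIs per allele were 11.6 and 10.1 in libraries 00 and 01 and 9.38 and 9.96 in libraries 10 and 11. Between 95 and 118 cell barcodes were shared by each pair of libraries, and 9.26 to 18.2% of these had the same clone in both.

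The sequences below show the intBC and the repaired junction of the state with the largest difference in Clones 3, 4, 5, 6, 10 and 11, where that state was in at most 0.120% of the cells of one side. The leading state of the opposite side is given where it had a single indel. The 5 bases before the break are in lower case, and the bases after it, inserted ones included, are in capitals. Positions count along the target site as the allele table gives them.
Clone 3 intBC: CGATCTCTAAGGAC
Clone 3, plate 1, deletion of 82 bases at position 91: tcgcaTTCAT
Clone 4 intBC: ACCTTGAAGATATT
Clone 4, plate 0, deletion of 108 bases at position 113: ccgaaCGGAG
Clone 4, plate 1, insertion of 3 bases at position 167: gatatGAACTCTG
Clone 5 intBC: GGTTTACTGAGTAG
Clone 5, plate 0, deletion of 68 bases at position 108: gtacgGTCCT
Clone 5, plate 1, deletion of 108 bases at position 113: ccgaaCGGAG
Clone 6 intBC: AGGTATTTCTTGGG
Clone 6, plate 0, deletion of 2 bases at position 111: cgccgAAATG
Clone 6, plate 1, deletion of 6 bases at position 113: ccgaaCCTGA
Clone 10 intBC: TCTCGGTTGTCCTG
Clone 10, plate 0, deletion of 53 bases at position 112: gccgaATCTC
Clone 10, plate 1, deletion of 12 bases at position 104: ctttgTGGCC
Clone 11 intBC: GGGCTCGACTTGGC
Clone 11, plate 0, deletion of 7 bases at position 214: gctatCGGAG
Clone 11, plate 1, deletion of 5 bases at position 220: aattcGGACA

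Clone shares at collection were uneven between the sides of the first split. Clone 5 made up 8.76 and 9.60% of the clone cells in libraries 00 and 01 but 0.615 and 0.596% in libraries 10 and 11. The plate 1 libraries thus held a share 15.0-fold lower than plate 0, with sister libraries within 1.10-fold of each other. Clone 7 took 7.14 and 7.33% on plate 0 and 1.41 and 0.922% on plate 1, 6.19-fold lower. Clone 10 took 2.46 and 1.72% against 0.829 and 0.528%, 3.07-fold lower. Both also differed most between sister libraries on plate 1, by 1.52-fold and 1.56-fold.

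Clone 2 went the other way and was the largest clone of plate 1. It made up 15.1 and 16.2% on plate 0 and 33.4 and 33.5% on plate 1, 2.13-fold higher. Clone 11, the smallest, held 9 and 12 cells in libraries 00 and 01 and 52 and 64 cells in libraries 10 and 11. Its pooled share was 0.119% on plate 0 (95% exact binomial interval 0.0740 to 0.183%, counting error only) and 0.688% on plate 1 (0.569 to 0.825%).

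The 4 remaining clones differed by less and were all lower on plate 1. Clone 1 took 27.8 and 27.7% on plate 0 and 21.6 and 23.8% on plate 1, and Clone 3 took 24.3 and 23.2% against 19.2 and 17.9%. Clone 4 took 8.20 and 8.78% against 5.78 and 5.93%, and Clone 6 took 6.09 and 5.28% against 4.63 and 3.83%. The folds ran from 1.22 in Clone 1 to 1.45 in Clone 4.

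In 9 of 9 clones the library shares of the sides did not overlap, with 2 clones higher and 7 lower on plate 1. The absolute log2 ratio between sides averaged 1.48 ± 1.28 (SD, n = 9 clones), against 0.19 ± 0.17 between sister libraries. The excess was above 0 in 9 of 9 clones, with a mean of 1.29 ± 1.26 (SD; by exact sign flips, p = 0.00391, the smallest these 9 clones can give; adjusted p = 0.0215). Shares of a library sum to a fixed total and are not independent of each other. The larger plate 1 shares of Clones 2, 8 and 9 thus lower those of the other clones there. The 7 lower clones are therefore not 7 separate falls, and a lower share need not mean fewer cells relative to the other lower clones. Clones 8 and 9 had under 20 cells on plate 0 and took 6.45 and 8.04%, and 5.40 and 4.24%, of the plate 1 libraries. The plot of clone shares shows these values for each library.

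**Figure D1:**
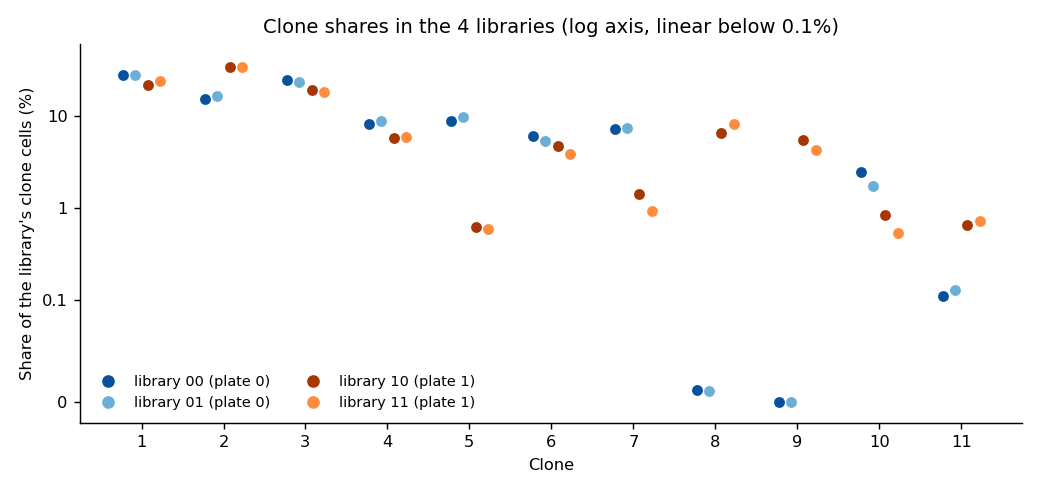
Share of each library's clone cells (%, log axis, linear below 0.1%) taken by each of the 11 clones, 1 point per library, blue for plate 0 and orange for plate 1. Points of the same plate lie close together, and Clones 5 and 7 sit lowest on plate 1 relative to plate 0 while Clones 2 and 11 sit higher there.

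Editing differed between the sides clone by clone, without a common direction. Percent edited is the share of detected alleles (1 per cell and intBC) with an indel at the site. Clone 10 moved most: at cut site 1 it was 42.8 and 38.6% edited in libraries 00 and 01 and 61.0 and 59.1% in libraries 10 and 11. The side values were 40.9% of 3267 alleles and 60.2% of 1010 alleles. At cut site 2 it was the plate 0 libraries of Clone 10 that were more edited, at 66.4 and 65.5% against 54.3 and 54.6%.

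Clone 2 was less edited on plate 1 at cut sites 1 and 2 and more edited at cut site 3. Its library values at cut site 1 were 33.8 and 35.1% on plate 0 and 25.2 and 25.7% on plate 1. At cut site 2 they were 59.5 and 60.1% against 53.4 and 54.2%, and at cut site 3 they were 22.6 and 23.1% against 27.9 and 27.0%. Clone 4 showed a different order of sites, with 67.4 against 61.3% at cut site 1, 89.5 against 93.3% at cut site 2 and 70.3 against 66.8% at cut site 3.

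Other clones left little room for a difference. Clone 7 was 100% edited at cut sites 1 and 2 on both sides, and Clone 5 was at least 96.7% edited at every site on both sides. Clone 1 was the reverse case, with at most 0.133% of alleles of a side edited at cut sites 1 and 2. At cut site 3, however, Clone 1 was 17.6 and 17.2% edited on plate 0 and 12.8 and 14.2% on plate 1. Clone 3 differed most at cut site 2, with 36.8% on plate 0 and 34.2% on plate 1. Clone 6 was 68.3 and 72.7% edited at cut site 2 and 36.5 and 31.9% at cut site 3. Clone 11, with only 115 plate 0 alleles, gave 96.5 and 89.9% at cut site 1 and 78.3 and 84.6% at cut site 3.

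Averaged over clones, no cut site had a shift that passed the test. The differences (plate 1 minus plate 0) were 0.033 ± 8.21 points at cut site 1, -1.37 ± 4.92 at cut site 2 and 0.058 ± 3.97 at cut site 3 (SD, n = 9 clones). Exact sign flips gave p = 0.992, 0.453 and 0.969 in that order, and the adjusted p were 0.992, 0.623 and 0.992. Without Clone 10 the means at cut sites 1 and 2 were -2.37 and -0.095 points over 8 clones (exact p = 0.25 and 0.906; adjusted p = 0.393 and 0.992). Of the 9 clones, 5, 3 and 5 were higher on plate 1 at cut sites 1, 2 and 3.

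The size of the differences was nevertheless larger than between sister libraries. Averaged over cut sites, the absolute difference between sides was 3.83 ± 3.46 points and that between sister libraries 1.13 ± 1.07 points (SD, n = 9 clones). The excess of 2.70 ± 3.15 points was above 0 in 9 of 9 clones (by exact sign flips, p = 0.00391; adjusted p = 0.0215). With intBCs weighted equally instead of alleles, the excess was 2.26 points and no longer passed (exact p = 0.0625; adjusted p = 0.172). Library values did not overlap between sides for 21 of 27 clone and site combinations, 11 higher and 10 lower on plate 1. For single intBCs and cut sites, 64.0% of 228 combinations did not overlap.

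Within a clone, single intBCs often moved in opposite directions. In Clone 10, 7 of 11 intBCs were more edited on plate 1 at cut site 1 and 3 were less edited. Its intBC CGCCTTTCTATCGG was 23.6 and 15.5% edited at cut site 1 in libraries 00 and 01 and 100% in both libraries of plate 1. Its intBC ATAGGTTTTGCGCG was 93.2 and 91.1% edited at cut site 2 on plate 0 and 32.4 and 48.6% on plate 1. In Clone 4, the intBC ACCTTGAAGATATT shown above was 81.3 and 67.8% edited at cut site 1 on plate 0 and 20.4 and 28.1% on plate 1. Clone 3, whose totals barely moved, held intBC CGATCTCTAAGGAC at 15.1 and 17.4% edited at cut site 1 on plate 0 and 58.5 and 59.1% on plate 1. The differences of its 16 intBCs at cut site 1 ran from -38.4 to 42.5 points, with 9 higher and 7 lower on plate 1. These intBCs were picked after their values were seen, as the largest difference of their clone and site.

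**Figure D2:**
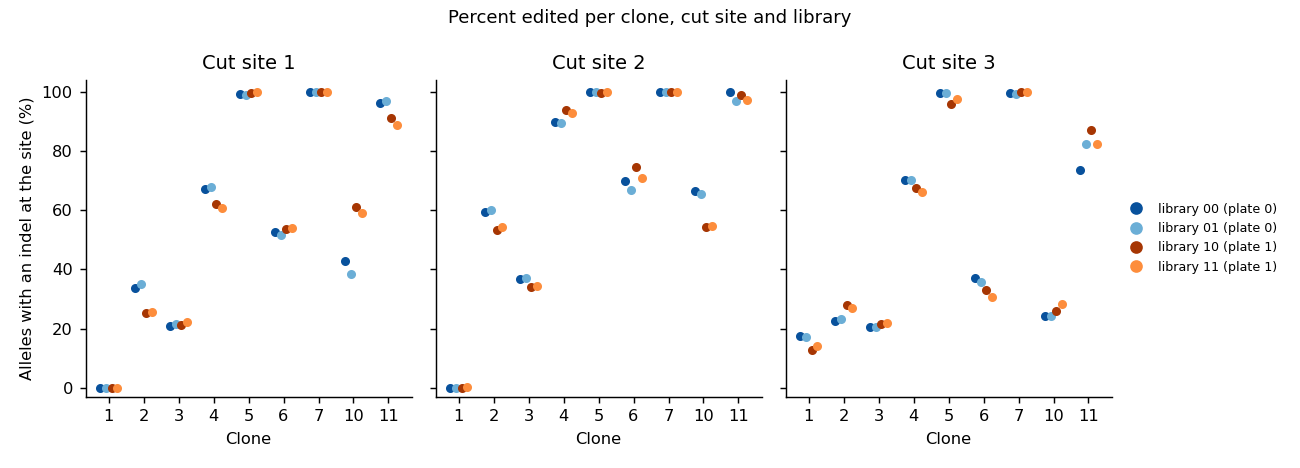
Alleles with an indel (%) at each of the 3 cut sites in the 9 clones compared, 1 point per library, blue for plate 0 and orange for plate 1. Clone 10 at cut site 1 is at 42.8 and 38.6% on plate 0 and at 61.0 and 59.1% on plate 1, while Clones 5 and 7 lie near 100% on both.

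Capture of the recorder showed no shift over all 9 clones that passed the test. UMIs per intBC, the mean UMI count of detected alleles, were lower on plate 1 in 7 of 9 clones. The mean log2 ratio was -0.12 ± 0.25 (SD, n = 9; by exact sign flips, p = 0.184; adjusted p = 0.337). Without Clone 10, 1 of the 2 clones that were higher on plate 1, the mean was -0.18 (8 clones, exact p = 0.0156; adjusted p = 0.0344). Without library 00, which had the most UMIs per allele, it was -0.00660 (8 clones, exact p = 0.883; adjusted p = 0.992). Clone 11 also gave no value there, and without Clone 11 alone the mean was -0.0974 (8 clones, exact p = 0.367; adjusted p = 0.583). Library values did not overlap between sides in 4 of 9 clones, and for single intBCs in 43.4% of 76. Clone 5 had 19.1 and 15.7 UMIs per intBC in libraries 00 and 01 and 11.4 and 11.0 in libraries 10 and 11. Clone 11 had 20.7 and 21.2 against 16.8 and 16.4, and Clone 4 had 12.5 and 10.9 against 10.4 and 10.6. Clone 10 was higher on plate 1, with 12.7 and 11.5 against 14.2 and 16.2. The plate 1 libraries also had fewer UMIs per allele over all cells (given above), and the part of this in the clone values was not tested.

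Detection, the percent of a clone's cell and intBC combinations that were read, changed by -3.45 ± 11.7 points (SD, n = 9; lower in 6 of 9 clones; by exact sign flips, p = 0.555; adjusted p = 0.678). Clone 5 carried this mean. It was detected in 68.9 and 68.7% in the plate 0 libraries and in 37.6 and 34.8% in the plate 1 libraries, and without it the mean of the other 8 clones was 0.195 points. Clone 7 was detected in 86.4 and 92.4% on plates 0 and 1, Clone 6 in 71.5 and 66.5% and Clone 4 in 70.7 and 66.4%. Library values did not overlap in 6 of 9 clones, and for single intBCs in 73.9% of 88.

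The cells of Clone 5 held different intBCs on the different sides. Of its 9 intBCs, AGATGTCCCACCCT was found in 93.4 and 90.8% of the cells of libraries 00 and 01 and in 0% of the 102 cells of plate 1. The intBCs GTCCGTTATAAAGG, AGAGAGCTACCGTA and CACCGAGATCAGGC were likewise at 0% in both plate 1 libraries, against 71.5 and 72.9%, 66.3 and 63.8%, and 19.1 and 19.6% on plate 0. ACCTGACCTTACTT was in 80.9 and 81.5% on plate 0 and in 4.08 and 0% on plate 1. In contrast, GTGTAATAAGACTA was in 5.96 and 7.37% of the plate 0 cells and in 85.7 and 81.1% of the plate 1 cells. TAGTGGGCGTTTTC and TTATTTTGAGGCAA were in at least 90.6% of cells in every library. Clone membership was assigned upstream from intBC sets, and whether these sides of Clone 5 descend from 1 founder was not tested. The plot of detection in Clone 5 shows its 9 intBCs side by side.

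**Figure D3:**
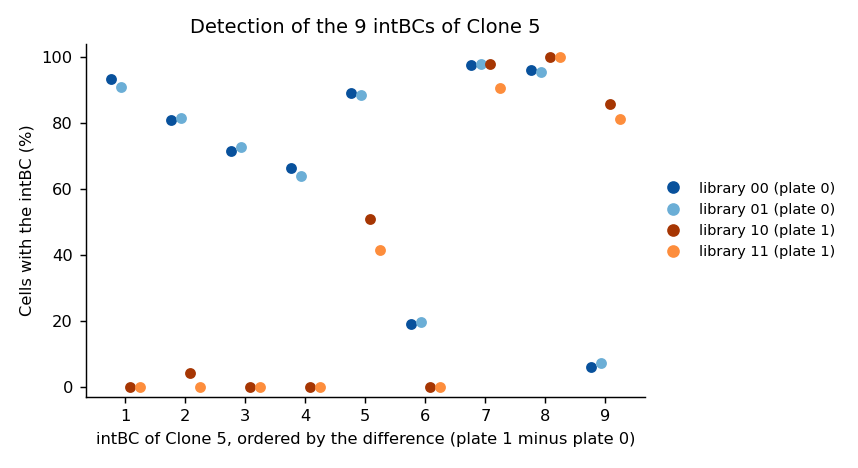
Percent of Clone 5 cells in which each of its 9 intBCs was detected, 1 point per library, ordered by the difference between plates. The 4 intBCs at 0% in both plate 1 libraries stand in 19.1 to 93.4% of plate 0 cells, and the intBC at the right is in 5.96 and 7.37% of plate 0 cells and in 85.7 and 81.1% of plate 1 cells.

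Private states, those found on a single side, became rarer with the number of cells that carried them, but they did not vanish. The 9 clones held 16035 states, of which 13287 were private. A state in 1 cell is private by construction, and 8407 states were of that kind. Of the states in 2 cells, 84.9% of 2250 were private to a side, followed by 72.7% of 2259 in 3 to 5 cells and 52.1% of 1732 in 6 to 20 cells. Among states in 21 to 100 cells 32.4% of 876 were private, and among those in over 100 cells 27.6% of 511. An indel that spanned several cut sites was counted at each of them.

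The second split gave a different profile. Within plate 0, states carried by 2 of its cells were private to 1 sister library in 79.8% of cases, and within plate 1 in 80.1%. The share was 61.4 and 58.3% at 3 to 5 cells and 21.02 and 17.58% at 6 to 20 cells. It was 0 of 525 and 0 of 475 states at 21 to 100 cells, and 0 of 262 and 0 of 280 at over 100 cells. States carried by more than 20 cells of a side were thus in both of its libraries without exception, while 284 states in 21 to 100 cells and 141 in over 100 cells were on a single side of the first split. Clone 5 gave 30 of the 284 and 32 of the 141. Several of its intBCs were read in no plate 1 cell, so states on those were private whatever the indel. Carrier number and the sizes of the sides also set part of these shares, so they are a description with no test.

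**Figure D4:**
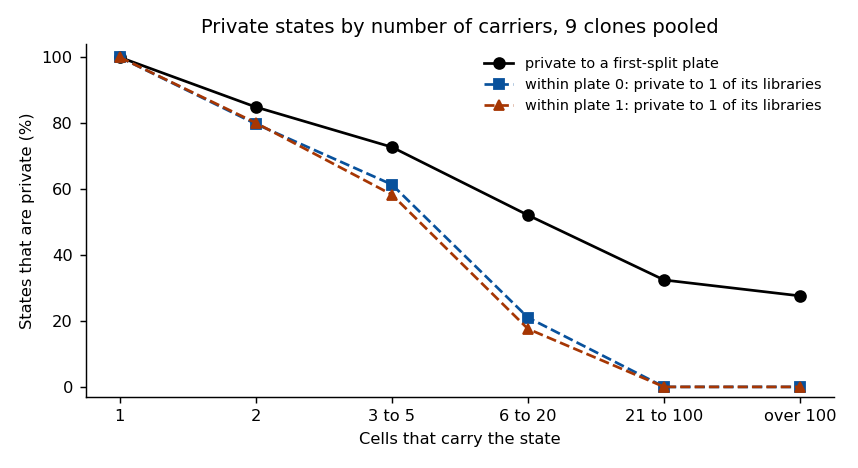
Percent of states that are private against the number of cells that carry them, 9 clones pooled, for the first split (black) and for the sister libraries of plate 0 (blue) and plate 1 (orange), with carriers of the latter counted within their plate. The lines start together, and the black line lies above both others from 2 carriers on, with 27.6% of states in over 100 cells private to a first-split plate and 0% to a sister library.

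Clones varied in this share. Over states in 2 or more cells, 65.5 ± 11.9% were private per clone (SD, n = 9). The lowest was Clone 7, with 8 of 17 states, and the highest Clone 5, with 114 of 124 states. In Clone 5, 48 of these 124 states lay on the 4 intBCs that were read in 20 or more cells on each side. Clone 10 followed with 71.3% of 324 states. The large Clones 1, 2 and 3 were at 59.6, 62.8 and 63.0%.

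To allow for unequal clone sizes, pairs of cells that carry the same state were compared with all pairs of cells that carry the intBC. The pair ratio is the share of carrier pairs that lie across the plates divided by that share among all pairs, so 1 means that carriers mix like the clone. It averaged 0.480 ± 0.259 (SD, n = 9 clones) and was below 1 in 8 of 9 clones (by exact sign flips against 1, p = 0.00781; adjusted p = 0.0215). Clone 5 was lowest at 0.291, then Clone 4 at 0.330, Clone 6 at 0.372, Clone 3 at 0.373 and Clone 2 at 0.398. Clone 10 stood at 0.419, Clone 1 at 0.441 and Clone 7 at 0.553. Clone 11 was the exception at 1.14, a value from 20 states on 2 intBCs and from 21 plate 0 cells. Without it the mean was 0.397 ± 0.079.

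Carriers also kept together across the second split. The ratio between sister libraries averaged 0.654 ± 0.130 (SD, n = 9). The first split gave the lower ratio in 8 of 9 clones, with differences from -0.141 in Clone 1 to -0.569 in Clone 5. The mean difference over 9 clones was -0.174 ± 0.302 and did not pass (by exact sign flips, p = 0.129; adjusted p = 0.284), with Clone 11 at 0.556 in the opposite direction. Without Clone 11 it was -0.265, with 8 of 8 clones below 0 (exact p = 0.00781, the smallest 8 clones can give; adjusted p = 0.0172). It also passed with all 9 clones when only indels found in at most 5 of the table's 117 intBCs were kept (-0.344; exact p = 0.00391; adjusted p = 0.0143).

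In Clones 1, 2, 3, 6 and 10 the splits differed most for frequent states. For states in 2 cells, Clone 2 had ratios of 0.336 across the first split and 0.469 and 0.458 across the second within plates 0 and 1. For states in over 100 cells, it had 0.392 across the first split, while the second gave 0.994 and 0.985. Clone 3 gave 0.399 for such states against 0.969 and 0.988, and Clone 10 gave 0.262 against 0.973 and 1.00. Clone 1 gave 0.551 against 0.976 and 0.988, and Clone 6 gave 0.443 against 0.998 and 0.973. Clone 7, by contrast, had 0.939 across the first split, and Clone 4 had 0.770. Over the 8 clones with at least 10 states in over 100 cells, the ratio across the first split ran from 0.262 to 0.939.

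**Figure D5:**
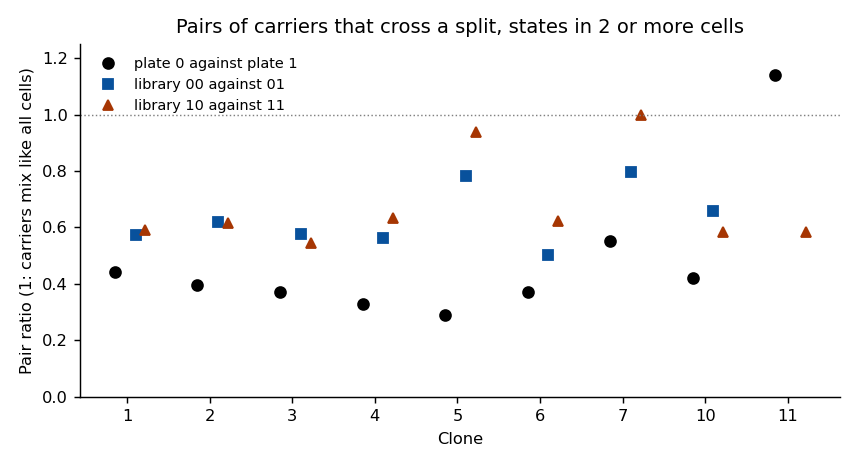
Pair ratio of states in 2 or more cells for each clone across the first split (black) and between the sister libraries of plate 0 (blue squares) and plate 1 (orange triangles). The dotted line marks 1, where carriers mix like all cells with the intBC. Black points lie between 0.291 and 0.553 in 8 clones and at 1.14 in Clone 11, which has too few plate 0 cells for a blue square.

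Among the states in 20 or more cells whose intBC was read in 20 or more cells on each side, 28.9% of 1374 were private to a side. The percent of cells with the state had no overlap between the library values of the sides for 80.6% of them. The private share was 73.3% of 30 states in Clone 5 and 55.8% of 43 in Clone 10. It was 33.3% of 81 in Clone 6, 31.9% of 188 in Clone 4 and 29.2% of 414 in Clone 3. Clones 2 and 1 had 23.8% of 543 and 19.0% of 58, and Clones 7 and 11 had 2 of 11 and 1 of 6. Clones 5 and 10 were therefore far above the value over all clones, and the other clones with over 20 such states lay within 10 points of it.

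In the state with the largest difference of each clone, the sides had often taken different indels at the same cut site. These states were chosen for their difference, and no test was made of them. In Clone 10, the deletion of 12 bases shown above was in 0% of 160 and 135 cells with its intBC in libraries 00 and 01 and in 97.6 and 100% of 42 and 35 cells in libraries 10 and 11. Plate 0 instead had the deletion of 53 bases in 71.5% of 295 cells, and that was in 0% of 77 plate 1 cells. Both are states at cut site 1, so the same intBC carried a different mark on each side.

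Clone 5 showed the same arrangement at intBC GGTTTACTGAGTAG. The deletion of 108 bases across all 3 cut sites was in 0 of 1437 plate 0 cells and in 47 of 47 plate 1 cells, 25 of 25 and 22 of 22 by library. The deletion of 68 bases was in 82.5% of the plate 0 cells and in 0% of the plate 1 cells. Neither side had uncut alleles at this site.

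In Clone 4, the insertion of 3 bases at cut site 2 was in 0% of 224 and 233 plate 0 cells and in 92.2 and 83.3% of 103 and 96 plate 1 cells. Plate 0 held 43 different states at that site among 457 cells and plate 1 held 5 among 199 cells. The leading plate 0 state, the same deletion of 108 bases as on plate 1 of Clone 5, was in 18.4% of plate 0 cells and 1.01% of plate 1 cells. In Clone 6, the deletion of 6 bases was in 0 and 0.235% of the plate 0 cells by library and in 24.4 and 28.4% of the plate 1 cells. The deletion of 2 bases at the same site ran the other way, with 23.3% on plate 0 and 0.655% on plate 1.

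Clone 3 had its largest difference in the deletion of 82 bases, in 0 of 1368 and 0 of 1440 plate 0 cells by library and in 53.1 and 54.2% of the plate 1 cells. In that intBC 83.7% of plate 0 alleles were uncut at cut site 1, against 41.2% on plate 1. In Clone 11, a deletion of 5 bases at position 220 in intBC GGGCTCGACTTGGC was in 0 of 20 plate 0 cells and in 84.3 and 80.3% of the plate 1 cells by library. With 20 cells, a count of 0 allows a share of up to 15%.

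In the remaining 3 clones the leading state was on both sides at different levels. A deletion of 2 bases at position 166 in intBC CCTTTAACTTAGGG in Clone 2 was in 79.7 and 81.0% of the plate 0 cells and in 41.1 and 39.3% of the plate 1 cells. A deletion of 2 bases at position 219, at cut site 3, led in both other clones. In Clone 7 (intBC CCTCATCCTTTTAC) it was in 59.9 and 54.8% of the plate 0 cells and in 100% of the plate 1 cells of both libraries. In Clone 1 (intBC TGGACCTAAGTTAG) it was in 19.3 and 18.5% on plate 0 and in 3.76 and 2.69% on plate 1. The same indel was found in 95 of the 117 intBCs, which sets it apart from the deletion of 82 bases in Clone 3, found in 1.

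The private state with the most carriers lay on the side where its clone had more cells in 8 of 9 clones, with Clone 3 as the exception. Choosing by carrier number favours the side with more cells, so this count says little about the states. In Clone 2, a deletion of 12 bases at position 167 in intBC CCTCGATTGCACTA was in 0 of 2273 plate 0 cells and in 17.3 and 25.6% of the cells of libraries 10 and 11. In Clone 4, a deletion of 54 bases at position 113 in intBC GACTTTAATGTACA was in 37.4 and 34.5% of the plate 0 cells and 0 of 726 plate 1 cells. A deletion of 19 bases at position 155 in Clone 10 (intBC ATAGGTTTTGCGCG) was in 77.4 and 55.6% on plate 0 and in 0 of 71 cells on plate 1. In Clone 7, a deletion of 8 bases at position 213 was in 28.1 and 29.4% on plate 0 and in 0 of 177 cells on plate 1. In Clone 6, a deletion of 3 bases at position 162 was in 22.2 and 23.4% on plate 0 and in 0 of 547 cells on plate 1. In Clone 1, a deletion of 41 bases at position 218 was in 4.58 and 6.26% on plate 0 and in 0 of 2984 cells on plate 1. In Clone 5 the most frequent private state lay on intBC AGATGTCCCACCCT, in 1488 of 1488 plate 0 cells, which no plate 1 cell held.

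States shared by all cells showed the opposite case. A deletion of 54 bases at position 167 was in 100% of the cells with the intBC in every library, both in Clone 4 (intBC CGACAATGTAGTTG, 1957 cells) and in Clone 5 (intBC TTATTTTGAGGCAA, 1651 cells). In Clone 7, the deletion of 108 bases was in all 1463 cells with intBC TTGTTGTAAACCAG. Frequent shared states could still be uneven. In Clone 3, a deletion of 105 bases across all 3 cut sites (intBC GGAAAAGCGCCACC) was in 70.8 and 64.4% of plate 0 cells and in 38.5 and 37.1% of plate 1 cells. In Clone 10, a deletion of 18 bases at position 161 was in 88.5 and 86.5% on plate 0 and in 3.13 and 5% on plate 1. The other leading shared states were at 47.3 and 38.6% in Clone 6 and at 89.5 and 100% in Clone 11, on plates 0 and 1.

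The rare states that occurred on both sides were made of commoner indels. Recurrence was counted as the number of the table's 117 intBCs in which the same indel was found, for states in 2 to 5 cells. In Clone 1 the median was 50.5 intBCs for 58 states found on both sides and 6 for 179 private states. Clone 2 had 31 against 8, Clone 3 had 34 against 8, Clone 4 had 47 against 5 and Clone 6 had 39.5 against 6.5. Clone 10 had 64 against 35, and the medians of Clones 5 and 11 rested on 1 and 2 states of both sides. Clone 7 had no such state on both sides. The difference averaged 31.6 ± 9.90 intBCs (SD, n = 8 clones) and was above 0 in 8 of 8 clones (by exact sign flips, p = 0.00781, the smallest 8 clones can give; adjusted p = 0.0215). The call was lost with a minimum of 5 UMIs per allele (33.6 intBCs) and without library 00 (35.8), where 6 clones gave a value. In both settings exact sign flips gave p = 0.0313, the smallest 6 clones can give (adjusted p = 0.0859). Indels found in a single intBC made up 16.6 to 33.0% of the private states of Clones 1, 2, 3, 4, 6 and 10, and at most 0.948% of their states on both sides.

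The kind of indel went along with this. Among states in 2 to 5 cells, those with more than 1 indel were private in 100% of 52 states. Insertions of 2 or more bases were private in 92.9% of 407 states. The median indel of both kinds was in 1 intBC. Deletions listed at several cut sites were private in 85.8% of 836 states, with a median of 5 intBCs. Deletions of over 10 bases at a single site were private in 77.2% of 1783, and deletions of 1 to 10 bases in 72.2% of 1220. Insertions of 1 base were lowest, private in 70.1% of 211 states, with a median of 35 intBCs. These shares pool the clones, and the clone values overlapped. Among clones with at least 10 such states, insertions of 1 base ran from 50 to 75.8% and deletions of 1 to 10 bases from 61.4 to 100%. The cut sites differed less, with 82.2, 78.4 and 76.7% private at cut sites 1, 2 and 3.

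Counting states in 2 or more cells, most cells of both sides carried at least 1 state private to their side in 7 of 9 clones. States in few cells were often private to a sister library too (given above). For states in 2 or more cells this held for 89.9% of Clone 2 cells on plate 0 and 94.6% on plate 1, and for 77.8 and 84.7% in Clone 3. In Clone 10 it held for 99.7 and 99.1%, and in Clone 5 for 100 and 85.3%. The plate 0 value of Clone 5 includes intBCs read in no plate 1 cell, where any state is private. Clone 1, little edited, had 24.8 and 13.6%, and Clone 7 had 29.2 and 0%. Counting only states in 20 or more cells, it still held for most cells of both sides in Clones 2, 3, 4, 5 and 10. Clone 6 then had 43.3 and 59.4%, and Clone 11, with 21 plate 0 cells, had 0 and 83.6%. Whole allele strings, all intBCs and indels of a cell together, were never the same across the plates in Clones 2, 3, 5, 10 and 11. In Clone 5 the intBCs themselves differed between the plates, apart from any indel. Strings matched in the sister library were also rare or at 0% in Clones 2, 3, 10 and 11, with 0.942 and 0.390% of the cells of plates 0 and 1 in Clone 2, 1.78 and 0.833% in Clone 3, and 0% in Clones 10 and 11. In Clone 5, by contrast, 80.7% of plate 0 cells and 73.5% of plate 1 cells had their string in the sister library. Clone 7 was the opposite, with 68.6% of plate 0 cells and 100% of plate 1 cells matched by a cell of the other plate. Clone 1 had 40.1 and 49.8%, and Clones 4 and 6 had at most 2.01%.

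The number of distinct states showed no common direction that passed the test. With the side of more cells reduced to the cell number of the other by rarefaction, the log2 ratio (plate 1 over plate 0) was -0.18 ± 0.48 (SD, n = 9; higher in 5 and lower in 4 clones; by exact sign flips, p = 0.371; adjusted p = 0.583). Clone 2 had 2540 states on plate 0 and 3524 expected on plate 1 at equal cells, a log2 ratio of 0.47. Clone 4 had 861 and 662, a ratio of -0.38, and Clone 7 had 16.2 and 9, a ratio of -0.84. Clone 11 had 21 and 10.5, from 2 intBCs. Clones 1, 3, 5, 6 and 10 had log2 ratios between -0.02 and 0.07.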

How the data were processed

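Single-cell RNA sequencing of target site transcripts gave 4 libraries of A549 cells, each from 1 plate. The deposited values are raw UMI and read counts per cell and intBC. To make them, the authors obtained cell barcodes with Cell Ranger 2.0.1, collapsed UMIs to consensus sequences, aligned these to the target site, kept 1 allele per cell and intBC, called clones from intBC sets and removed doublets. They also dropped intBCs found in few cells of a clone, which can hide intBCs particular to a small side. The table was used as deposited, and the trees were not used here. Depth was 679952 to 812480 UMIs per library, and alleles with 1 UMI were 5.58 to 8.01% of the total. Intervals cover counting error only.

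An allele was edited at a site where its text gave an indel, and intBCs absent from a cell's alleles were missing. For clone shares, 0.5 cells were added to each count. Each side was the pool of its libraries for percent edited, UMIs, detection and states, and the mean of its libraries where sides were compared with sister libraries. Pair ratios and distinct states used intBCs read in at least 20 cells on each side. Named states were, per clone, the one with the largest difference, the most frequent private one and the most frequent one on both sides. Clones, states and tests were chosen with earlier results of these data known. The sign-flip test, the pair ratio, rarefaction and the measures of percent edited, UMIs, detection and distinct states were tested on simulated data. The clone share excess, the editing excess, the pair ratio difference between splits and recurrence were not.

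Alternatives were a minimum of 5 UMIs per allele, 50 cells a side, intBCs in at least 50% of cells, other weights, rarer indels, another denominator, and each library or clone left out. The restriction to clones with several intBCs in the pair ratio, and all alternatives for private and named states, were chosen after seeing the data. Computation used pandas 2.3.3, numpy 2.4.6, matplotlib 3.10.9 and scipy 1.17.1 under Python 3.11.15.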

Additional observations from a re-analysis of the deposited data

Results flagged for a closer look

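In 4 of the 11 measures screened, a single clone lay far from the other clones. The gap was beyond a limit that chance alone would pass about 1 time in 20 for each measure. Both measures of Clone 11 hold the same first-split pair ratio. Clone 10 at cut site 1 differed by 19.3 points (plate 1 minus plate 0), while the other 8 clones lay between -9.05 and 1.69 points. Clone 5 changed by -32.6 points in detection, and the other clones lay between -4.98 and 7.19 points. Clone 11 was 0.142 above 1 in the pair ratio and 0.556 above its own ratio between sister libraries, with 21 cells on plate 0. The means without these clones are given with the results.

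Some cells outside the comparison were almost all on plate 1. Clone 8 had 1229 cells there and 2 on plate 0 (0.0114%, exact 95% interval 0.00138 to 0.0411%). Clone 9 had 807 cells on plate 1 and 0 on plate 0, which allows a share of up to 0.0171% there by the limit of 3 counts. Of the 121 cells assigned to no clone, 117 were on plate 1 (67 and 50 by library) and 4 on plate 0. No test of these counts was made.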

How the results depend on the processing

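Clone shares, the pair ratio against 1 and the mean difference at cut site 2 kept their direction and their side of the threshold under every alternative run, and the mean share of private states, which was not tested, ran from 64.5 to 67.9%. The mean clone share excess ran from 0.978 to 1.43 and the pair ratio minus 1 from -0.880 to -0.313. Cut site 2 never passed and ran from -2.94 (intBCs weighted equally) to -0.095 (without Clone 10). The mean at cut site 1 was near 0 and turned with a minimum of 5 UMIs (-0.173) and with intBCs weighted equally (-0.262), and ran from -2.37 (without Clone 10) to 1.17 with a library or clone left out. Cut site 3 turned with 50 cells a side (-0.729) and intBCs weighted equally (-0.299), and ran from -0.854 to 0.640. None of these passed the threshold. The editing excess lost its call with intBCs weighted equally (2.26). The pair ratio difference between the splits passed with a minimum of 5 UMIs (-0.289), 50 cells a side (-0.265), carrier pairs weighted equally (-0.305), indels in at most 5 intBCs (-0.344) and 3 or more intBCs (-0.265). With a library or clone left out it ran from -0.329 to -0.125 and passed without any of the libraries or Clone 11. Clone 11 gave no value without a library, with 5 UMIs, with 50 cells or with 3 or more intBCs. Recurrence lost its call with a minimum of 5 UMIs (33.6) and without library 00 (35.8), where 6 clones gave a value. These 6 clones gave the smallest p that 6 clones can. With others left out, recurrence ran from 29.7 to 36.4. Detection turned without Clone 5 (0.195; lowest -4.96), UMIs passed without Clone 10 (-0.191 to -0.00660 over left-out sets, the latter without library 00) and distinct states turned without library 00 (0.000539; lowest -0.271). Every test paired the sides within a clone. The limits were 1 plate per side and 21 plate 0 cells in Clone 11.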
